A study of Drosophila melanogaster with 4 samples.

Results

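At 628 of 7022 pairs of overlapping peaks, a strong ASH1 peak coincided with a weak FSH peak (8.94%). A pair was 1 ASH1 peak and 1 FSH peak that shared at least 1 bp, each of them touching no other peak of the other list, and the mitochondrial sequence was left out. Pairs were taken when the ASH1 peak had a score of at least 1000 and the FSH peak a score below 300. The sites were thus chosen by both peak scores, which are given below as a description, without a test. Of the 3941 pairs with an ASH1 score of at least 1000, called ASH1-strong here, these 628 were 15.9%. Over all 7022 pairs, 2104 had an FSH score below 300, so weak FSH was less frequent in ASH1-strong pairs than in all pairs. The opposite selection, an FSH score of at least 1000 with an ASH1 score below 300, held 206 pairs, which is 2.93% of all pairs and 7.12% of the 2892 pairs with strong FSH.

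The peaks came from ChIP-seq of ASH1 and of FSH in S2-DRSC cells, an established line of cultured cells derived from Drosophila embryos. Each protein was precipitated with 2 antibody preparations from cells for which the labels name no treatment, ASH1-N and ASH1-C for ASH1 and a pair of polyclonal preparations for FSH, which gave 4 libraries. The study asked whether both proteins occupy the same sites on chromatin, and its authors merged the reads of both antibodies against a protein before calling peaks against input chromatin. For FSH the methods describe one antibody as recognising both isoforms and the other as recognising FSH-L only, while the sample titles assign one to FSH-S and the other to FSH-S and FSH-L together. An isoform therefore could not be assigned to any FSH peak. With 1 merged list per protein there was no replicate, and no difference between peaks could be set against a spread between samples.

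ASH1 is a histone methyltransferase of the Trithorax group, the set of proteins required to maintain active expression of homeotic and other genes in flies. FSH belongs to the bromodomain and extraterminal (BET) family, whose bromodomains bind acetylated histones, and exists as a long and a short isoform. Polycomb group proteins act in opposition to the Trithorax group and maintain silent states of many of the same genes.

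The score is the value that the peak caller gave to each peak. It was taken to be -10 times the log10 of P, because the lowest score of 50.02 in either list lies just above 50, the score of the cut-off of 1e-05. The score grows with enrichment over input and also with the number of reads, so that a score of 1000 in the ASH1 list does not have to mean the same occupancy as 1000 in the FSH list. The threshold of 1000 lay above 53.9% of all ASH1 peaks, and the threshold of 300 lay above 31.2% of all FSH peaks. Read counts are not part of the lists, so the depth behind a peak is unknown. Intervals are 95% intervals, of the Wilson type for shares, from order statistics for medians and of the Newcombe type for differences between shares. They assume independent peaks and cover only counting error.

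In the 628 sites the ASH1 score ranged from 1000.42 to 3227.04 with a median of 1837, and quartiles of 1374 and 2628. The FSH score ranged from 50.08 to 299.12 with a median of 175, and quartiles of 114 and 236. Ranked within its own list, the median ASH1 peak of these sites stood above 68.9% of ASH1 peaks, whereas the median FSH peak stood above 20.2% of FSH peaks. The ASH1 score was between 1000 and 2000 at 353 sites (56.2%), between 2000 and 3100 at 170 sites (27.1%) and 3100 or more at 105 sites (16.7%, 14.0 to 19.8%). Exactly 3100 was shared by 90 of these 105 peaks and by 18.3% of all ASH1 peaks. Peaks at this value have no order among themselves. In the other 3313 ASH1-strong pairs, 48.8% of ASH1 peaks reached 3100. The sites thus held strong ASH1 peaks from the lower part of the strong range more often than the remaining ASH1-strong pairs did. FSH scores were below 100 at 122 sites (19.4%), between 100 and 200 at 258 sites (41.1%) and between 200 and 300 at 248 sites (39.5%). Across the 628 sites Spearman's rho between both scores was 0.19. Since the selection limited the range of both scores, this value cannot be set against the rho of 0.45 over all 7022 pairs. It describes peaks of the same libraries and carries no test.

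**Figure D1:**
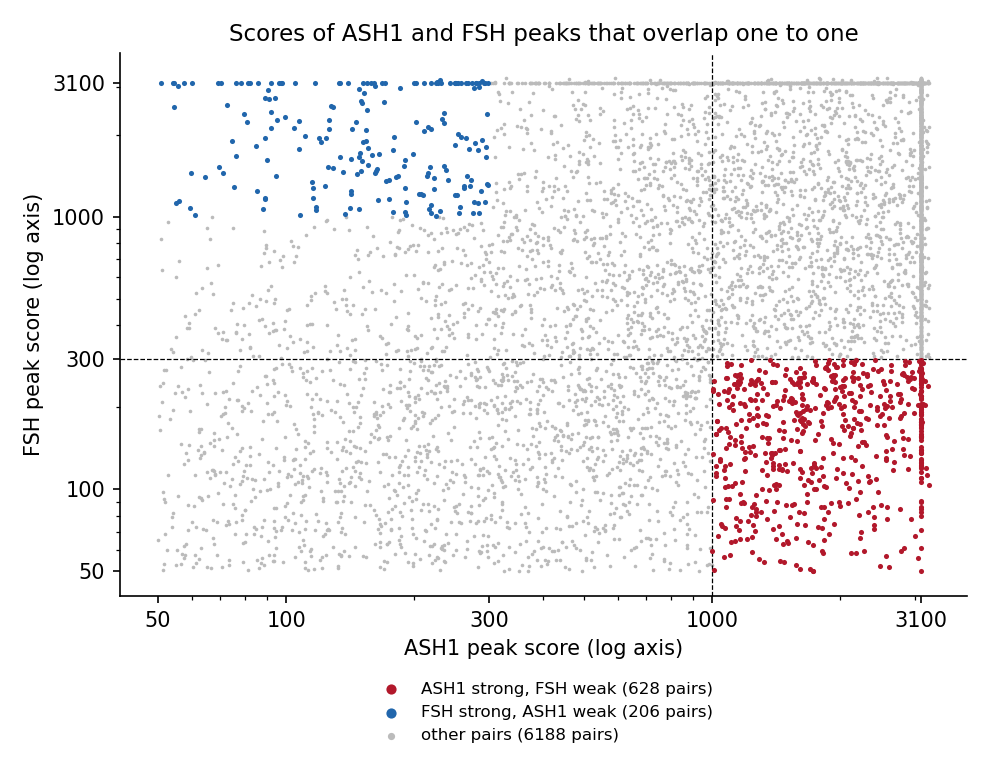
Scores of the ASH1 peak (x axis) and the FSH peak (y axis) of all 7022 pairs, both on log axes. Each point is 1 pair, dashed lines mark the thresholds of 1000 and 300, and the 628 sites in red fill the lower right field down to the lowest FSH score of 50.08, whereas the 206 pairs with strong FSH and weak ASH1 in blue fill the upper left field more sparsely. Points lined up at 3100 on either axis share that score.

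The thresholds cut through a continuous cloud of pairs. The sites just inside the ASH1 threshold had ASH1 scores of 1000.42, 1002.87 and 1004.77, and the pairs just outside it had 999.41, 991.22 and 991.08. Just inside the FSH threshold the FSH scores were 299.12, 299.01 and 298.77, and just outside they were 300.48, 300.74 and 300.76. The pairs just outside had peaks of similar size, for example an ASH1 peak of 676 bp with a score of 2182.93 over an FSH peak of 1094 bp with a score of 300.48 on 3R.

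A strong ASH1 peak without any FSH peak was rarer than one with a weak FSH peak. Among 4952 ASH1 peaks with a score of at least 1000, 146 overlapped no FSH peak (2.95%, 2.51 to 3.46%). A further 865 overlapped FSH but not in a pair of 1 peak each. When several overlaps were allowed and the strongest FSH peak had to stay below 300, 671 strong ASH1 peaks qualified, 43 more than the 628. Seen from the FSH list, 628 of 2751 FSH peaks with a score below 300 lay at these sites (22.8%, 21.3 to 24.4%), and 460 had no ASH1 peak at all (16.7%, 15.4 to 18.2%). Of all 8822 FSH peaks outside the mitochondrial sequence, 3941 lay in ASH1-strong pairs, which is a larger share than the 22.8% of the weak ones.

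The clearest cases were the sites at which the ASH1 score had reached 3100 and FSH was weakest. On 3R, positions 26284619 to 26285316 of BDGP Release 5, a 698 bp ASH1 peak with a score of 3100 overlapped a 673 bp FSH peak with a score of 50.14, close to the lowest value of the list. Only 402 bp away from the site, taken as both of its peaks together, lay another FSH peak with a score of 1304.15, so FSH was called strongly next to the site but not on it. The ASH1 peak nearest to this site was 423 bp away and had a score of 990.75, so the stronger peak was on the site in the ASH1 list and beside it in the FSH list. On 3R, 1509785 to 1511927, an ASH1 peak of 2143 bp was covered over its whole length by an FSH peak of 2701 bp with a score of 60.79. No other peak of either protein was found within 5 kb of it. The other sites of this kind were 3R, 4095282 to 4095998, with an FSH score of 71.25, 2L, 21155625 to 21157163, with 79.91, and 2R, 3353460 to 3354967, with 82.84. At all 5 sites the ASH1 score was exactly 3100. The site on 2R had a second site of the same kind as its neighbour, 3350004 to 3351393, where the ASH1 score was 1724.42 and the FSH score 50.3. The sites are given by position, and no gene is named, since gene models of Release 5 were not used here.

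**Figure D2:**
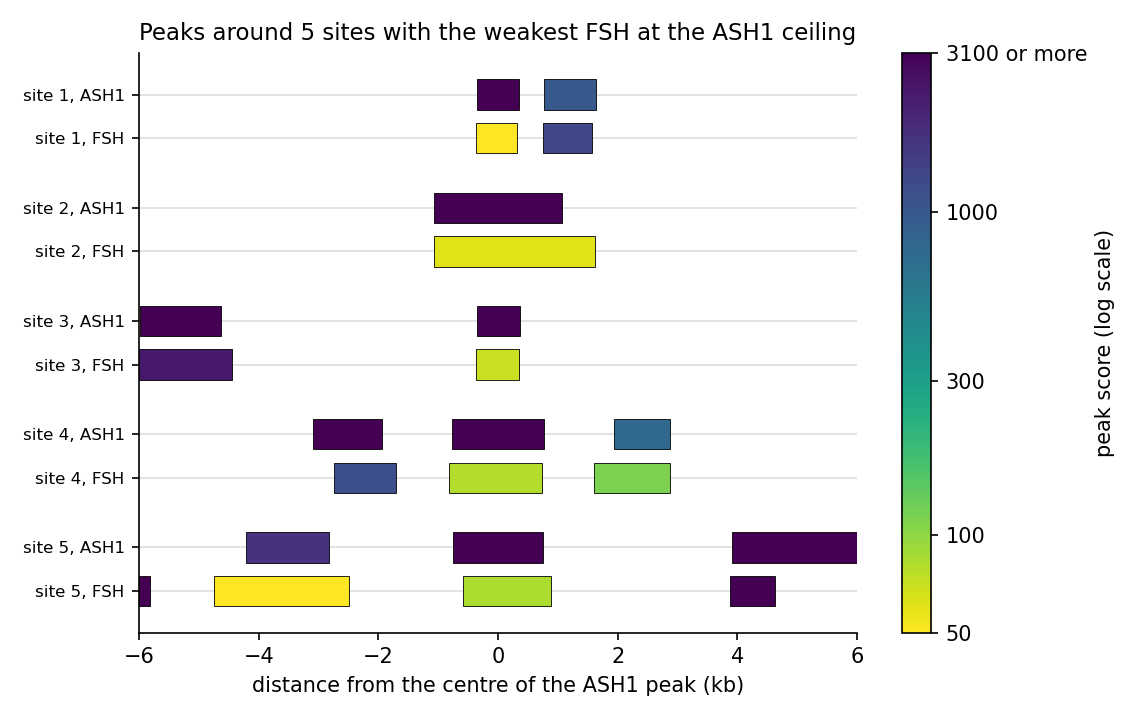
ASH1 peaks (upper row of each pair) and FSH peaks (lower row) around the 5 sites with the weakest FSH among those with an ASH1 score of 3100, against the distance from the centre of the ASH1 peak in kb. Boxes are peaks to scale, the colour is the peak score on a log scale, and the sites are numbered by increasing FSH score. In the centre of each panel a dark ASH1 box with a score of 3100 lies over a pale FSH box with a score between 50.14 and 82.84, and at site 1 the adjacent FSH box has a score of 1304.15.

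Although FSH was weak by score, its peaks were about as long as those of ASH1. They were slightly longer within the pairs, as in the other classes of pairs. At the 628 sites the median length was 797.5 bp (772 to 824 bp) in the ASH1 list and 813 bp (777 to 841 bp) in the FSH list. Both intervals overlapped. The ratio of ASH1 to FSH length within a pair had a median of 0.972 (0.955 to 0.988), an interval below 1, and in 565 pairs (90.0%) the lengths were within 1.5 times of each other. This was not particular to the sites. The median ratio was 0.953 in the other ASH1-strong pairs and 0.949 over all 7022 pairs. It was 0.957 in pairs with both scores below 300, and 0.820 in pairs with strong FSH and weak ASH1. The ASH1 peak was over 2 times longer at 7 sites, and the FSH peak was over 2 times longer at 6 sites. Lengths of both peaks were related across the sites (rho = 0.75, against 0.90 in the other ASH1-strong pairs). Length and score come from the same reads, so none of the lengths is independent of the selection.

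Compared with the rest of the ASH1-strong pairs, the sites were short in both lists. ASH1 peaks measured 797.5 bp at the sites, against 1158 bp (1135 to 1187 bp) in the other 3313 pairs, and FSH peaks measured 813 bp at the sites, against 1266 bp (1234 to 1296 bp). The difference in ASH1 length was present in each class of ASH1 score. With ASH1 scores between 1000 and 2000, ASH1 peaks had a median of 793 bp at the sites and 1072 bp at the other pairs. Between 2000 and 3100 the medians were 775.5 bp at the sites and 1131 bp at the other pairs, and at 3100 or more they were 877 bp and 1244 bp in the same order. Within the ASH1-strong pairs, the median ASH1 length was larger in each higher class of FSH score. It was 717.5 bp at FSH scores below 100, 801.5 bp between 100 and 200, 824.5 bp between 200 and 300, 899 bp between 300 and 500, 998 bp between 500 and 1000, 1140 bp between 1000 and 2000, 1330 bp between 2000 and 3100, and 1690 bp at 3100 or more. The 3 classes below 300 are the 628 sites, and their intervals overlapped, from 672 to 792 bp in the lowest class to 788 to 877 bp in the highest, so the order among them was not resolved beyond the counting error.

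**Figure D3:**
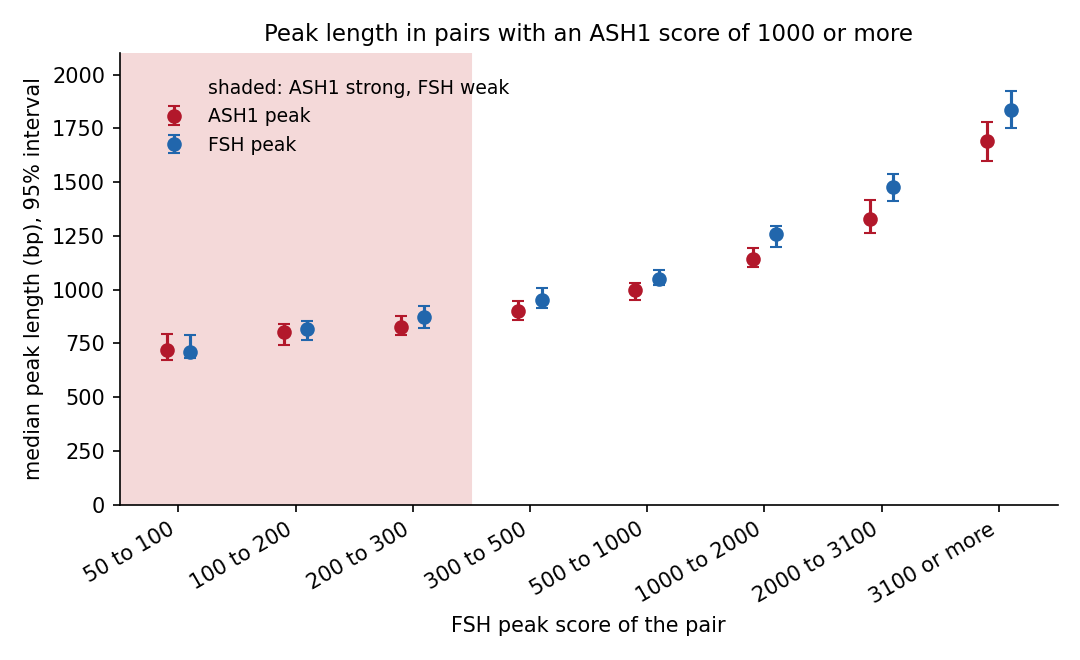
Median length in bp (y axis) of ASH1 peaks (red) and FSH peaks (blue) in ASH1-strong pairs, by the FSH score of the pair (x axis). Bars are 95% intervals of the median, and the shaded field holds the 628 sites. ASH1 length extends from 717.5 bp in the lowest class to 1690 bp in the highest, and FSH length from 711.5 bp to 1835 bp.

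FSH peaks at the sites were longer than weak FSH peaks elsewhere, in classes that were not matched on FSH score. Against 813 bp at the sites, FSH peaks with a score below 300 had a median length of 642 bp (624 to 658 bp) where the ASH1 peak also had a score below 300, and of 583 bp (572 to 592 bp) where there was no ASH1 peak. Over the pairs with weak FSH, FSH length was 642 bp at ASH1 scores below 300, 734 bp between 300 and 1000, 790 bp between 1000 and 2000, 811.5 bp between 2000 and 3100, and 896 bp at 3100 or more. The median FSH score was 175 at the sites and 119 where both scores were below 300. At the sites it was 157, 190 and 193 at ASH1 scores between 1000 and 2000, between 2000 and 3100, and at 3100 or more. FSH length at the sites was also larger at higher FSH scores, with medians of 711.5 bp below 100 and 870 bp between 200 and 300. The part of the FSH score in these differences in length was not tested. ASH1 peaks of the opposite class were shorter relative to their partner. There the weak ASH1 peaks had a median of 596 bp and the strong FSH peaks of 783.5 bp.

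The 5 longest ASH1 peaks of the sites lay on 3R, U, 3L, 3R and 2L. The longest, on 3R from 11808634 to 11819395, measured 10762 bp with a score of 3165.95, over an FSH peak of 10869 bp with a score of 204.16. Of the 628 ASH1 peaks, 18 were longer than 2 kb and 4 were longer than 3 kb. On the unplaced sequence U, an ASH1 peak of 8089 bp, from 5289618 to 5297706, met an FSH peak of 1155 bp at its right end, with a score of 115.79. This pair had the highest length ratio of the sites, 7.00, and the largest distance between peak centres, 3487 bp. On 3L, 6967430 to 6973761, the ASH1 peak measured 6332 bp and the FSH peak 8627 bp with a score of 127.72. The remaining ASH1 peaks among the 5 measured 3641 bp on 3R (16153169 to 16156809) and 2925 bp on 2L (5906232 to 5909156), over FSH scores of 200.71 and 120.42.

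The centres of both peaks lay close together at most sites. Centres are midpoints of the called peaks, since the lists give no summits, and the required overlap limits their distance. The distance between the centres had a median of 51.5 bp (45 to 60 bp) at the sites, against 56 bp (53 to 59 bp) in the other ASH1-strong pairs, and both intervals overlapped. At 445 sites (70.9%) the centres lay within 100 bp of each other. Both ends lay within 100 bp at 286 sites (45.5%) and within 200 bp at 439 sites (69.9%). In the median pair, 95.7% of the ASH1 peak and 92.2% of the FSH peak were shared, over 693.5 bp. The FSH start lay at a median of -8 bp from the ASH1 start, the FSH end at 2 bp from the ASH1 end, and the FSH centre at -5.75 bp from the ASH1 centre. The FSH peak reached beyond the ASH1 peak only on the left at 186 sites (29.6%, 26.2 to 33.3%) and only on the right at 150 sites (23.9%, 20.7 to 27.4%), with overlapping intervals. The lowest shared part was 14.0% of an ASH1 peak and 28.0% of an FSH peak.

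Which peak enclosed the other differed between the classes of pairs. The FSH peak lay inside the ASH1 peak at 125 sites (19.9%, 17.0 to 23.2%), against 14.4% (13.2 to 15.6%) of the other ASH1-strong pairs and 2.91% (1.34 to 6.21%) of the pairs with strong FSH and weak ASH1. The ASH1 peak lay inside the FSH peak at 167 sites (26.6%, 23.3 to 30.2%), against 40.0% (38.4 to 41.7%) of the other ASH1-strong pairs and 74.3% (67.9 to 79.8%) of the pairs with strong FSH and weak ASH1. The ASH1 peak was the longer one at 260 sites (41.4%), against 33.0% of the other ASH1-strong pairs and 11.7% of the opposite class. Over all 7022 pairs, the ASH1 peak lay inside the FSH peak in 39.8% and the FSH peak inside the ASH1 peak in 15.1%. An ASH1 peak inside its FSH peak was also more frequent than the reverse at the 628 sites. In the opposite class the strong protein enclosed the weak one in most pairs. Both classes use the same thresholds in lists whose scores need not mean the same occupancy, so they are not matched. Where the FSH score was below 100, the FSH peak lay inside the ASH1 peak at 27.9% of the sites (20.7 to 36.4%) and the ASH1 peak inside the FSH peak at 19.7% (13.6 to 27.6%), with overlapping intervals.

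**Figure D4:**
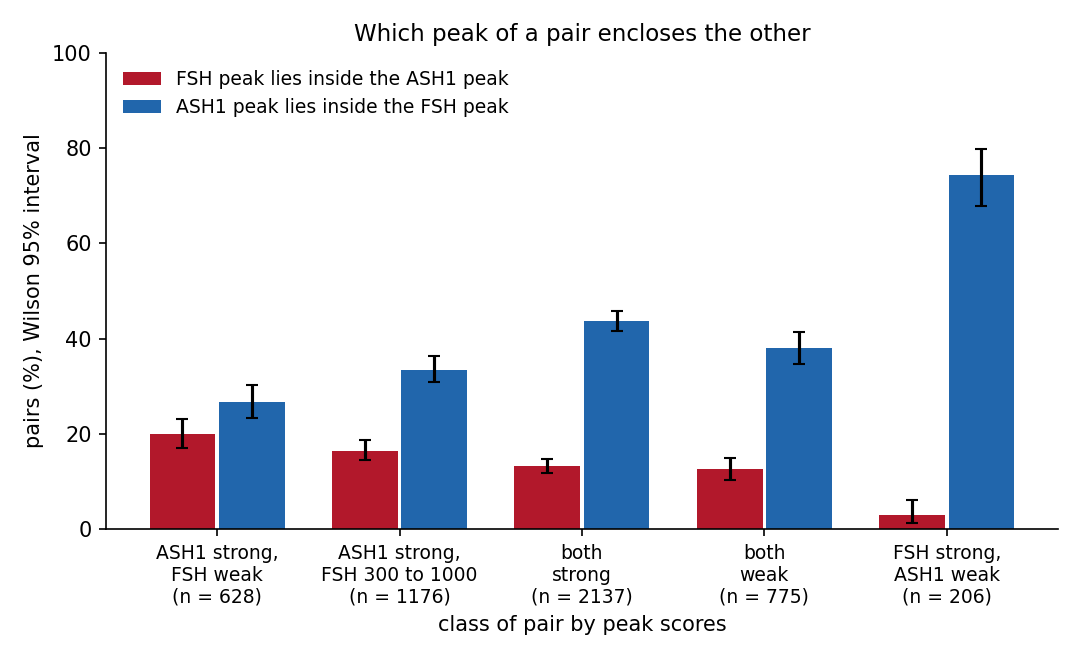
Percentage of pairs (y axis, from 0) in which the FSH peak lies inside the ASH1 peak (red) or the ASH1 peak lies inside the FSH peak (blue), for 5 classes of pairs by score (x axis). Error bars are Wilson 95% intervals. The difference between the bars is smallest at the 628 sites on the left, 19.9% against 26.6%, and largest in the 206 pairs with strong FSH and weak ASH1 on the right, 2.91% against 74.3%.

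The sites were found on all major chromosome arms. There were 101 on X, 116 on 2L, 129 on 2R, 111 on 3L, 157 on 3R, 3 on the fourth chromosome and 11 on heterochromatic or unplaced sequence. Their density was 4.51 per Mb on X, 5.05 on 2L, 6.10 on 2R, 4.52 on 3L and 5.63 on 3R, where the last peak of an arm was used as its end. The longest stretch without a site on an arm, 1671927 bp, lay between 22785193 and 24457121 on 3L, and the median gap between successive sites was between 83363 bp on 2L and 125342 bp on 3L.

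Relative to the strong ASH1 peaks available, the sites were most frequent on X. They made up 20.6% of the 491 ASH1-strong pairs on X (17.2 to 24.4%), against 15.7% of the 3259 pairs on the autosomal arms (14.5 to 17.0%), a difference of 4.83 percentage points (1.25 to 8.81). On single autosomal arms the share was 14.8% on 3L, 15.5% on 2L, 15.7% on 2R and 16.7% on 3R. The interval of the difference included 0 within each class of ASH1 score. It was 6.19 points (-0.565 to 13.6) between 1000 and 2000, 7.94 points (-0.132 to 17.3) between 2000 and 3100, and -0.961 points (-3.70 to 3.34) at 3100 or more. It also included 0 when the FSH threshold was 200 (2.44 points) or 500 (4.14 points), or the ASH1 threshold 2000 (2.97 points). Scores of all pairs were lower on X in both lists, with a median ASH1 score of 831.5 and a median FSH score of 552 on X, against ASH1 medians between 1230 and 1412 and FSH medians between 700.2 and 832 on the autosomal arms. The part of these scores in the difference was not tested. The opposite class was more frequent on X as well. There, 15.1% of the FSH-strong pairs had a weak ASH1 peak, against 4.91 to 7.50% on the autosomal arms.

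On the fourth chromosome, 3 of 56 ASH1-strong pairs were such sites (5.36%, 1.84 to 14.6%), and on heterochromatic and unplaced sequence 11 of 135 (8.15%, 4.61 to 14.0%). Both shares were below the 15.7% of the autosomal arms (14.5 to 17.0%), and both intervals ended below the lower bound of X, 17.2%. The interval of the fourth chromosome, with 3 sites, overlapped that of the autosomal arms, and the other did not. The median FSH score of all pairs was 1765 on the fourth chromosome and 685 on heterochromatic and unplaced sequence. On the autosomal arms it was between 700.2 and 832. The part of these scores in the shares was not tested. Along the arms, each divided into 5 equal stretches in the direction of its coordinates, the share took a different course on each arm. On 2L it was 24.4% (18.4 to 31.6%) in the first stretch, at the tip of the arm, and 8.67% (5.13 to 14.3%) in the last. On 2R it was 9.85% (5.85 to 16.1%) in the first stretch and 20.7% (15.4 to 27.1%) in the last, at the tip. On the other arms the highest share was not at the tip, but its interval overlapped that of the tip stretch on each of them. On X these intervals were 18.8 to 33.9% for the highest share and 16.6 to 35.1% for the tip. On 3L the 5 shares were 15.6%, 13.2%, 8.90%, 18.6% and 17.5%, and on X they were 24.7%, 17.3%, 21.1%, 25.6% and 12.8%. On 3R they lay between 15.0% and 21.6%, with the highest in the middle stretch.

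Other peaks were near most of the sites. Another ASH1 peak lay within 5 kb of 514 sites (81.8%), against 77.0% of the other ASH1-strong pairs, and another FSH peak within 5 kb of 472 sites (75.2%), against 73.9%. No other peak of either protein lay within 5 kb of 111 sites (17.7%, 14.9 to 20.9%), against 20.8% (19.5 to 22.2%) of the other ASH1-strong pairs and 33.0% (27.0 to 39.7%) of the pairs with strong FSH and weak ASH1. Within 1 kb, 172 sites (27.4%, 24.0 to 31.0%) had another ASH1 peak, against 31.9% (30.3 to 33.5%) of the other ASH1-strong pairs, and 153 sites (24.4%, 21.2 to 27.9%) had another FSH peak, against 29.6% (28.0 to 31.1%).

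The FSH peaks next to the sites had lower scores than those next to the other ASH1-strong pairs. Of the 472 nearest FSH peaks within 5 kb, 368 had a higher score than the FSH peak of the site (78.0%), 150 had a score of at least 1000 (31.8%, 27.7 to 36.1%) and 191 had a score below 300 (40.5%, 36.1 to 45.0%). The FSH score of the sites was limited to below 300, and their median FSH peak stood above only 20.2% of all FSH peaks. The first of these shares therefore follows from the selection and says nothing about the neighbours. It was 29.0% at the other ASH1-strong pairs, whose FSH scores were 300 or more. In the other ASH1-strong pairs, 41.4% (39.5 to 43.4%) of such neighbours reached 1000 and 30.6% (28.8 to 32.5%) stayed below 300. The median score of the neighbouring FSH peak was 451 at the sites and 706 at the other pairs. The neighbouring ASH1 peaks showed the opposite order, with a median score of 1303 at the sites and 996 at the other pairs, and 57.0% (52.7 to 61.2%) at the sites against 49.9% (48.0 to 51.9%) at the other pairs reached 1000. At shorter distances the intervals of this last share overlapped. It was 52.9% (47.3 to 58.4%) at the sites against 48.2% (45.8 to 50.6%) at the other pairs within 2 kb, and 48.3% (40.9 to 55.7%) against 44.9% (42.0 to 48.0%) within 1 kb. Within 500 bp it was 43.8% (34.0 to 54.2%) at the sites against 40.7% (37.0 to 44.5%) at the other pairs. For neighbouring FSH peaks below 300 within 1 kb, the shares were 46.4% (38.7 to 54.3%) at the sites and 29.6% (26.8 to 32.6%) at the other pairs.

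At short distance, the next ASH1-strong pair was such a site in a larger share of the steps that began at a site than of those that began at another pair. When the ASH1-strong pairs were taken in order along each sequence, the next pair after a site, if its ASH1 peak lay less than 2 kb away, was again such a site in 25 of 72 steps (34.7%, 24.8 to 46.2%). After any other ASH1-strong pair it was such a site in 50 of 409 steps (12.2%, 9.40 to 15.8%), and the difference was 22.5 percentage points (11.9 to 34.4). Between 2 and 5 kb the shares were 28.3% after a site and 19.5% after another pair, between 5 and 10 kb they were 25.0% and 15.2% in that order, and between 10 and 20 kb 21.5% and 15.4%. The intervals of the difference lay above 0 up to 10 kb and included 0 in each of the 3 longer ranges. From 20 to 50 kb the share after a site, 10.9%, was the lower one, against 15.0% after another pair. Within 5 kb the difference was present in each class of ASH1 score of the next pair, with 46.8% after a site and 29.4% after another pair for scores between 1000 and 2000, 38.9% and 18.7% between 2000 and 3100, and 14.9% and 5.42% at 3100 or more. Below 2 kb the classes rested on 19, 21 and 32 steps after a site, in the same order. There the differences were 38.2 points (15.4 to 58.0), 19.3 points (-0.630 to 41.5) and 15.0 points (4.45 to 31.7). The interval of the middle class thus included 0. When the FSH threshold was lowered to 200, the difference below 2 kb over all classes dropped to 3.25 points and its interval included 0 (-4.10 to 16.5).

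**Figure D5:**
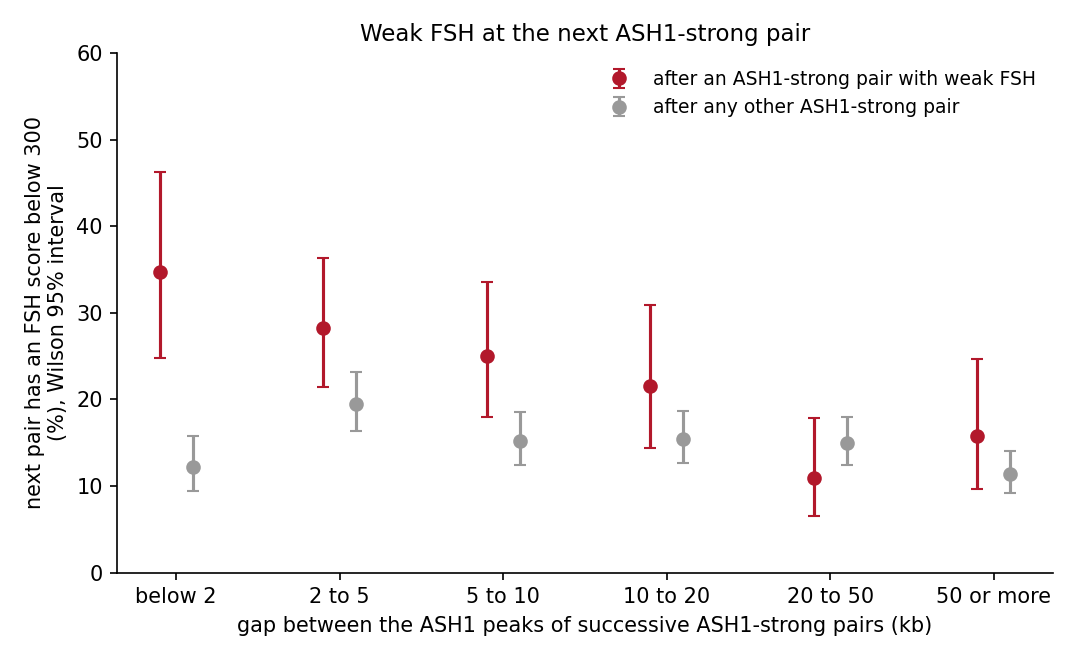
Percentage of next ASH1-strong pairs along the chromosome with an FSH score below 300 (y axis), by the gap between successive ASH1 peaks in kb (x axis), after 1 of the 628 sites (red) and after any other ASH1-strong pair (grey). Bars are Wilson 95% intervals. Below 2 kb the shares are 34.7% after a site and 12.2% after another pair, and from 20 to 50 kb they are 10.9% and 15.0%.

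With neighbours joined when at most 20 kb apart, 270 sites (43.0%, 39.2 to 46.9%) fell into groups, and the other 358 stood alone. The same share was not computed for other pairs, so it does not show whether grouping was particular to the sites. It also changed with the number of sites taken, from 27.6% with 275 sites to 55.0% with 1049. There were 95 groups of 2, 17 of 3, 6 of 4 and 1 of 5. The group of 5 spanned 53386 bp on 2R, 5709976 to 5763361, in which 20 ASH1 and 14 FSH peaks were called. The ASH1 scores of its sites were between 1103.18 and 1827.09, and the FSH scores were 65.6, 155.33, 178.56, 180.04 and 191.03. Strong FSH was not absent from this stretch, since 2 of its FSH peaks reached 1000. The sites of a group of 4 on 3R, 14010887 to 14041490, held FSH scores of 73.59, 74.89, 85.8 and 194.33, at ASH1 scores between 1057.42 and 2241.73. The strongest FSH peak in that stretch, outside the sites, had a score of 1423.6. In a group of 4 on X, 2591748 to 2627102, FSH scores at the sites were 96.27, 137.47, 198.55 and 214.72, among 9 ASH1 and 11 FSH peaks. Of these 11 FSH peaks, 2 reached 1000, and the strongest had a score of 1539.52. In 3 other groups of 4 no other peak of either protein was called between the first and the last site, so that each stretch consisted of 4 ASH1 and 4 FSH peaks, all of them at such sites. These groups lay on 2L at 815587 to 826842 and at 1164110 to 1178247, and on 3R at 4809442 to 4832541. They were picked out after their values had been seen. In the first of them ASH1 scores were between 1263.73 and 3100, while no FSH score exceeded 242.1. Just beyond its right end lay an ASH1 peak with a score of 184.75, at a gap of 125 bp, and an FSH peak with a score of 275.16, at a gap of 99 bp.

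The densest surroundings held 9 other peaks within 5 kb of a site, 5 of ASH1 and 4 of FSH, which was the case for the 5 sites named by the rule for such surroundings. At 1 of them, on 2L from 4459316 to 4460168, the ASH1 score was 2422.85 and the FSH score 109.48, and peaks of both proteins with scores of 3100 lay 94 bp (ASH1) and 81 bp (FSH) away. Another of the 5, from 4453461 to 4455408, was its neighbour on the same arm, with an ASH1 score of 2633.71 and an FSH score of 271.82. Within 5 kb a site had 1.53 other ASH1 peaks and 1.28 other FSH peaks on average, against 1.54 and 1.30 in the other ASH1-strong pairs.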

How the data were processed

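Per the methods, the authors used Bowtie 0.12.7 for alignment to BDGP Release 5, SAMtools 0.1.9 for merging the alignments of both antibodies against a protein, and MACS 1.4.0 for calling peaks over input at a P value cut-off of 1e-05. Their settings allowed a read with several matches to be placed at one of them, which can raise or lower scores in repeated sequence. The deposited lists give a start, an end and 1 score per peak, 10748 for ASH1 and 8824 for FSH, and the score has no header. The highest score was 3233.06 in both lists, the score of the smallest positive number in double precision. Scores were compared within a list only.

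Overlaps were computed with Python 3.11.15, numpy 2.4.6, pandas 2.3.3 and scipy 1.17.1, and the 9061 overlapping pairs were also counted with BEDTools 2.31.1, which gave the same number. Functions were tested on simulated lists. Positions are counted from 1, and gaps are the bases between another peak and the nearest end of a site, taken as the stretch covered by both of its peaks. Steps between pairs use the gap between their ASH1 peaks. Shares have Wilson intervals at 95%, which cover counting error only. No test between groups was made, as each protein had 1 merged list. The sites, classes and measures were chosen with earlier results of these data known. The enclosure of ASH1 by FSH, the comparison of X with the autosomes and the steps between pairs were added after seeing the data. Sites named in the text are the 5 with the lowest FSH score among those with an ASH1 score of 3100 or more, the 5 with the longest ASH1 peak, the 3 on either side of each threshold, the 5 with most other peaks within 5 kb and the 3 groups with most members at gaps of at most 20 kb, with exceptions stated. Alternatives were other score thresholds, overlaps, distances and merged peaks. Sequence features, genes and distances to transcription start sites were not analysed here, because they need a genome or an annotation of Release 5.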

Additional observations from a re-analysis of the deposited data

How the results depend on the processing

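Of 111 alternative values, 86 were counted as unchanged, 21 moved and 4 lost a difference whose interval lay above 0. A median or share was unchanged if it stayed inside the interval of the value in the text. A number of sites was unchanged within 1.5 times, and a difference if its interval stayed above 0. Only differences could be lost or turn, and none turned. The difference between X and the autosomal arms was lost in 3 of 8 alternatives, and that between steps in 1 of 9. The number of sites followed the thresholds and was 1042 with an ASH1 minimum of 500, 275 with an ASH1 minimum of 2000, 380 with an FSH maximum of 200 and 1049 with an FSH maximum of 500. With the same 4 thresholds, in that order, the share with another site within 20 kb was 50.9%, 27.6%, 29.5% and 55.0%. This share was 31.4% within 10 kb, 57.2% within 50 kb and 33.7% after peaks less than 1 kb apart had been merged. Median lengths of ASH1 and FSH peaks were 835 bp and 866 bp with an FSH maximum of 500, and 842 bp and 858 bp after merging. The share of sites with another ASH1 or FSH peak within 1 kb was 14.2% and 12.6% at a distance of 500 bp and 49.0% and 43.6% at 2 kb, and 0.745% and 0.186% after merging, which removes such neighbours by construction. The difference between X and the autosomal arms was 2.97 points (ASH1 minimum of 2000), 2.44 points (FSH maximum of 200) and 4.14 points (FSH maximum of 500), each with an interval that included 0, and the difference between steps after a site and after another pair was 3.25 points with an FSH maximum of 200. The cause of these changes was not tested. No value moved when 50% of both peaks had to be shared, when several overlaps were allowed or when the euchromatic arms alone were used. Alternatives on GC content and motifs were not run. No paired analysis was possible because the antibodies of a protein were merged before peaks were called, and for the same reason no library could be left out.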
